A study of Arabidopsis thaliana with 6 samples.

Results

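The nuclear genes for subunits of the mitochondrial respiratory chain and ATP synthase were followed in whole Arabidopsis thaliana seedlings after ozone. The members are 56 listed loci, of which 26 encode subunits of complex I, 1 a subunit of complex II, 14 subunits of complex III, 3 subunits of complex IV and 12 subunits of ATP synthase. A locus was measured where the array's annotation assigned a probe set to it alone, which held for 35 of the 56 loci, each with 1 probe set, among 22810 probe sets in all. The 35 comprised 18 loci of complex I, 10 of complex III, 2 of complex IV and 5 of ATP synthase. Another 8 loci lay on a probe set shared with other genes and 13 had no named probe set, so those 21 are not analysed here. The rule uses no measured value, though the members were chosen with earlier results of these data known.

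All seedlings were of the accession Col-0 (stock N1093), without a transgene or mutation named in the labels, and grew on 0.8% agar with 1 x MS and vitamins at 20 °C with days of 16 h and nights of 8 h. At developmental stage 1.04 they were kept for 6 h in sealed chambers, 3 samples under 500 ppb ozone and 3 samples under air scrubbed by charcoal and purafill, and RNA was taken directly afterwards. Each sample was hybridized to 1 Affymetrix ATH1 array, a 1-colour array that reports 1 signal per probe set. The labels name no separate cultures, so the p-values below rest on the spread among the samples at hand, part of which may be technical.

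The respiratory chain sits in the inner mitochondrial membrane. Complexes I and II pass electrons from NADH and succinate to ubiquinone, complex III passes them on to cytochrome c, and complex IV passes them to oxygen. Complexes I, III and IV pump protons across the membrane, and ATP synthase uses their return to make ATP. Plants also have alternative NAD(P)H dehydrogenases and an alternative oxidase, which carry electrons around the proton-pumping complexes, and plant complex III contains the peptidase that removes targeting sequences from imported mitochondrial proteins. Most subunits are encoded in the nucleus, and a few core subunits are encoded in the mitochondrion itself.

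Median signals of the 6 arrays ran from 41.7 to 49.5, and the control means of the 35 subunits lay between 57.8 and 1019, so all 35 were above the filter on dim probe sets, a mean signal of 31.2. Because no subunit was lost to that filter, the counts below cover every measured member. Across the 13648 tested probe sets the median log2 fold change, ozone minus control, was -0.15. Markers could be read for few cell types, though green tissue and roots, both part of the whole seedling, each had a bright one: the signal of RCA lay between 1603 and 3173 on the 6 arrays and that of PYK10 between 1806 and 3350. RCA, the activase of Rubisco in green tissue, was the 1 tested gene of 6 listed for leaf mesophyll and had a fitted difference of -0.39 on the log2 scale (limma adjusted p = 0.217, or 0.00783 with the replicate number as a block). Of 5 listed root genes 3 were tested, and the root hair expansin EXPA7 fell (log2 fold change -0.94, adjusted p = 0.0101). EXPA7 was above the filter only through its control arrays, at 44.3, 45.3 and 47.6 against 28.2, 21.5 and 22.3 after ozone, and it was tested in 13 of 17 settings. EXPA18 and the root glucosidase PYK10 had log2 fold changes of -0.57 and -0.33 (adjusted p = 0.0938 and 0.315, or 0.00754 for PYK10 with the block). Like EXPA7, EXPA18 was above the filter only through its control arrays and was tested in 13 of 17 settings. Its signals were 45.5, 35.8 and 36.4 on the control arrays and 30.1, 21 and 28.7 after ozone. Of 4 listed guard cell genes FMA and AT1G22690 were tested, with log2 fold changes of -0.34 and -0.44 (adjusted p = 0.372 and 0.183, or 0.0376 for AT1G22690 with the block), and neither of 2 phloem genes had a probe set. Their part in the results below was not tested, and in whole seedlings fewer cells of a type and less RNA per cell cannot be told apart.

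Among the 35 subunits 1 rose, none fell and 34 did not pass the test (limma, with Benjamini-Hochberg adjusted p under 0.05 across the whole table). Over all tested probe sets 28.0% passed, 13.0% higher and 14.9% lower after ozone, against 2.86% of the subunits. Without adjustment 3 subunits had p under 0.05, 2 higher and 1 lower, all of complex III, which is 8.57% of the subunits against 40.9% of all tested probe sets. With the replicate number as a block 2 rose and 3 fell, 14.3% of the subunits, against 49.1% of all tested probe sets under the same block (19.1% higher, 30.0% lower). The ozone and control arrays did not overlap for 7 subunits, 2 higher and 5 lower after ozone, against 45.7% of all tested probe sets.

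The differences were small as well as mostly below the threshold. The log2 fold change lay within a 1.5-fold change in either direction for 34 of the 35 subunits (97.1%), against 65.5% of all tested probe sets, and past 2-fold for 1 subunit against 15.3%. The 95% interval of the difference lay inside a 2-fold change for 33 subunits and inside a 1.5-fold change for 19 of them (54.3%), against 14.3% of all tested probe sets. The exceptions at 2-fold were AT5G25450 of complex III and AT1G80230 of complex IV. The median SE of the subunits was 0.18 on the log2 scale and that of all tested probe sets 0.21. With the filter at the 60th percentile of signal, which kept all 35 subunits, 1 subunit rose and none fell, and 32.6% of the probe sets in that fit passed.

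In sign 27 log2 fold changes were negative and 8 positive, with a median of -0.079 and a range of -0.42 to 1.38. Of all tested probe sets 61.5% were negative. The sign of these small values changed with 1 of the 2 rescalings tried. With every array centred on its median 18 subunits were negative, 51.4% against 56.3% of all tested probe sets. With quantile normalization 27 stayed negative, 77.1% against 59.6% of all tested probe sets, and the median of the subunits was -0.10. The median of the subunits lay nearer to 0 than that of all tested probe sets in the fit to all 6 arrays, but it was -0.18 against -0.13 without control replicate 2 and -0.17 against -0.12 without ozone replicate 1. The plot of subunit signals by array shows each subunit on all 6 arrays, and the plot of log2 fold changes shows the interval of each.

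**Figure D1:**
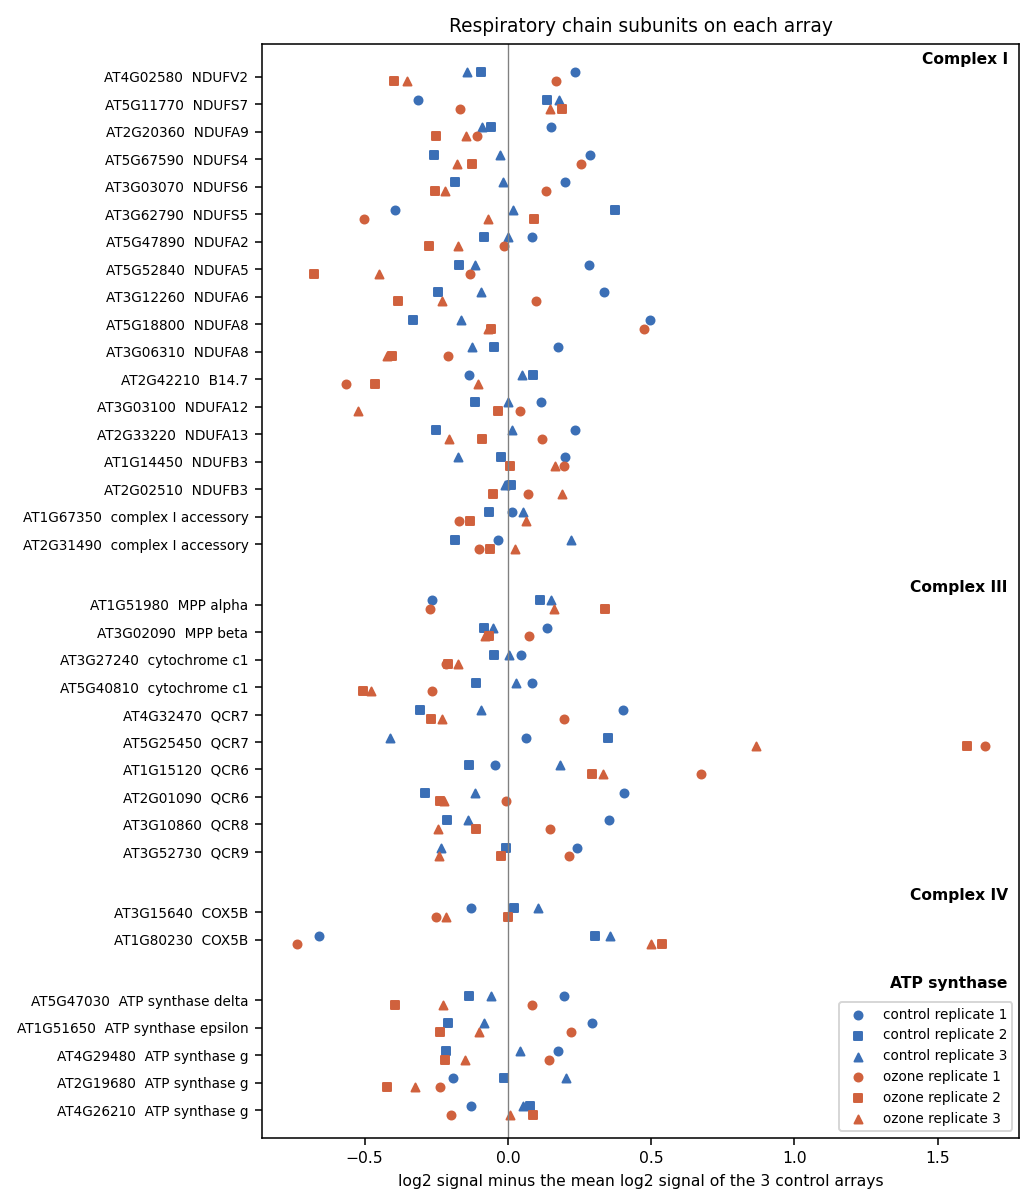
Signal of each of the 35 subunits on each array, as log2 signal minus the mean log2 signal of the 3 control arrays (x axis), with 1 line per subunit grouped by complex (y axis). Colours mark control and ozone, and marker shapes mark the replicate number. Ozone and control markers overlap for 28 subunits, and the 3 ozone markers of AT5G25450 lie farther to the right than those of any other subunit.

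**Figure D2:**
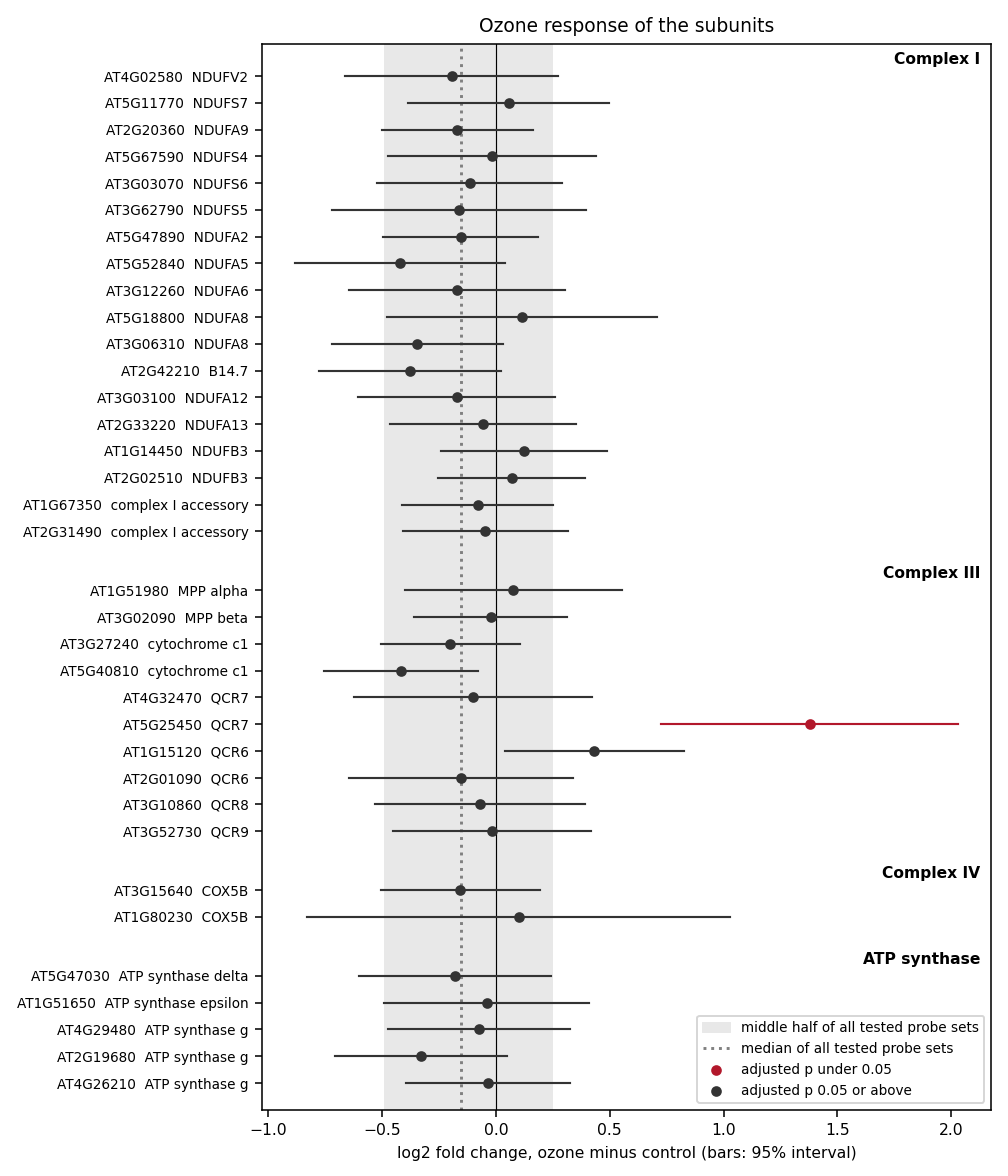
Log2 fold change of each subunit, ozone minus control, with its 95% interval from the limma fit (x axis), by complex (y axis). The grey band spans the lower to the upper quartile of all tested probe sets, from -0.49 to 0.25, the dotted line is their median of -0.15, and the red point is the 1 subunit past the threshold, AT5G25450.

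Complex I, the NADH dehydrogenase, has a matrix arm that carries the flavin and iron-sulfur centres and a membrane arm that pumps protons. None of its 18 measured subunits passed the test, against 28.0% of all tested probe sets. Their log2 fold changes ran from -0.42 to 0.12 with a median of -0.13, and 14 were negative. The interval of every one of the 18 lay inside a 2-fold change. Of the 6 listed conserved subunits of the matrix arm 2 were measured. NDUFV2 (AT4G02580), which carries an iron-sulfur centre of the NADH-oxidising tip, had signals of 689, 549 and 530 on the control arrays and 658, 445 and 458 on the ozone arrays, a log2 fold change of -0.19 (SE 0.20, adjusted p = 0.509). NDUFS7 (AT5G11770), which holds the last iron-sulfur centre before ubiquinone, had 636, 870 and 894 under scrubbed air and 704, 902 and 875 under ozone, a log2 fold change of 0.056 (SE 0.19, adjusted p = 0.857). The groups overlapped for both, and replicate 1 was the highest of each group for NDUFV2 and the lowest for NDUFS7.

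The other 16 measured subunits of complex I are accessory subunits, which stabilise the complex or take part in its assembly. NDUFA5 (AT5G52840), an accessory subunit of the matrix arm, had signals of 611, 445 and 464 on the control arrays and 458, 314 and 368 on the ozone arrays, means of 507 ± 90.8 and 380 ± 72.7 (SD, n = 3 each). Each ozone array lay below the control array of its number, but the groups overlapped, and the log2 fold change of -0.42 (SE 0.20) did not pass without the block (limma adjusted p = 0.155) and passed with it (0.0101). Without both arrays numbered 1 the adjusted p was 0.0461. B14.7 (AT2G42210, also named OEP16-3), a membrane protein of the family that includes translocase subunits, had 872, 1017 and 991 under scrubbed air and 648, 694 and 892 under ozone. Its ozone replicate 3 lay inside the control range, and its log2 fold change of -0.38 (SE 0.17, adjusted p = 0.143) also passed with the block (0.0165). These 2 were the complex I subunits that fell in the blocked fit, 11.1% of the 18 measured, against 30.0% of all tested probe sets.

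Both genes for NDUFA8, an accessory subunit with paired cysteines that is imported into the intermembrane space, were measured. AT3G06310 had signals of 148, 127 and 120 on the control arrays and 114, 99.4 and 98.0 on the ozone arrays, so that all 3 ozone arrays were lower, with a log2 fold change of -0.34 (SE 0.16, adjusted p = 0.152, or 0.0518 with the block). AT5G18800 had 322, 182 and 204 under scrubbed air and 318, 219 and 217 under ozone, overlapping groups with a log2 fold change of 0.12 (SE 0.26, adjusted p = 0.768). NDUFA9 (AT2G20360), a subunit that binds NADPH beside the ubiquinone site, was the other complex I gene whose groups did not overlap, with 500, 431 and 423 against 417, 378 and 407 and a log2 fold change of -0.17 (SE 0.14, adjusted p = 0.418).

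The remaining complex I genes did not pass, and their groups overlapped. FRO1 (AT5G67590), the NDUFS4 subunit of the matrix arm, had 825, 567 and 664 on the control arrays and 808, 621 and 599 on the ozone arrays, a log2 fold change of -0.016 (SE 0.20, adjusted p = 0.962). NDUFS5 (AT3G62790), an accessory subunit on the intermembrane space side, had 153, 260 and 204 against 142, 214 and 191, a log2 fold change of -0.16 (SE 0.24, adjusted p = 0.656). The accessory subunits NDUFS6 (AT3G03070), NDUFA2 (AT5G47890), NDUFA6 (AT3G12260) and NDUFA12 (AT3G03100) had log2 fold changes of -0.11, -0.16, -0.17 and -0.17, and NDUFA13 (AT2G33220), the relative of mammalian GRIM-19, had -0.057. Both genes for NDUFB3, a small subunit of the membrane arm, had positive values, 0.12 for AT1G14450 and 0.069 for AT2G02510. AT2G02510 had the narrowest control group of the 35 subunits, 422, 425 and 419, against 444, 407 and 482 after ozone. The small accessory subunits AT1G67350 and AT2G31490 had log2 fold changes of -0.079 and -0.046. The adjusted p of these 9 genes lay above 0.4.

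Complex III, the cytochrome bc1 complex, held the 3 subunits with an unadjusted p under 0.05, among them the 1 that rose. These were 30% of its measured subunits, against 40.9% of all tested probe sets. Of the 10 measured subunits of complex III 1 rose, none fell and 9 did not pass the test, while 28.0% of all tested probe sets passed. The median log2 fold change of the 10 was -0.046. The groups did not overlap for 4 of the 10, 2 higher and 2 lower after ozone, a share near the 45.7% of all tested probe sets. QCR7 is a small subunit on the matrix side of the complex and is encoded by 2 measured genes. AT5G25450 had signals of 59.0, 71.9 and 42.4 on the control arrays and 179, 171 and 103 on the ozone arrays, means of 57.8 ± 14.8 and 151 ± 41.9 (SD, n = 3 each). Every ozone array lay above every control array, and the 2.60-fold rise was a log2 fold change of 1.38 (SE 0.28, 95% interval 0.73 to 2.03, limma adjusted p = 0.00944). It passed under all 16 alternative settings and had the lowest control mean of the 35 subunits. With 64 added to every signal its log2 fold change was 0.81. AT4G32470, the other QCR7 gene, had 1044, 639 and 742 under scrubbed air and 906, 656 and 674 under ozone, a log2 fold change of -0.10 (SE 0.23, adjusted p = 0.770) with overlapping groups.

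QCR6, the acidic hinge protein beside cytochrome c1, is also encoded by 2 measured genes. AT1G15120 had signals of 343, 323 and 402 on the control arrays and 565, 435 and 446 on the ozone arrays, means of 356 ± 41.1 and 482 ± 72.4 (SD, n = 3 each). All ozone arrays were higher, but the log2 fold change of 0.43 (SE 0.17, 95% interval 0.041 to 0.82) did not pass (limma adjusted p = 0.0932) and passed only with the block (0.0225). AT2G01090 had 151, 93.0 and 105 against 113, 96.6 and 97.4, overlapping groups with a log2 fold change of -0.16 (SE 0.21, adjusted p = 0.624).

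Cytochrome c1 carries the haem that hands electrons to soluble cytochrome c. Both of its genes had all ozone arrays below all control arrays, as had 27.5% of all tested probe sets, and neither passed the test. AT5G40810 had signals of 643, 562 and 618 under scrubbed air and 505, 427 and 436 under ozone, means of 608 ± 41.6 and 456 ± 42.4 (SD, n = 3 each). Its log2 fold change of -0.42 (SE 0.15, 95% interval -0.76 to -0.076) did not pass (limma adjusted p = 0.0692). It passed with the block (0.00868), with quantile normalization (0.0275) and without both arrays numbered 1 (0.0238), settings under which 49.1%, 29.2% and 35.3% of all tested probe sets passed in that order. AT3G27240 had 487, 457 and 473 against 406, 408 and 418, means of 472 ± 15.1 and 411 ± 6.33, a log2 fold change of -0.20 (SE 0.13, adjusted p = 0.294, or 0.141 with the block).

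The core proteins of complex III double in plants as the mitochondrial processing peptidase. MPPBETA (AT3G02090) had signals of 786, 675 and 690 on the control arrays and 754, 684 and 678 on the ozone arrays, a log2 fold change of -0.023 (SE 0.15, 95% interval -0.36 to 0.31, adjusted p = 0.925). The alpha subunit AT1G51980 had 427, 554 and 568 against 424, 648 and 573, a log2 fold change of 0.076 (SE 0.21, adjusted p = 0.814). The groups overlapped for both core genes. The small subunits QCR8 (AT3G10860) and QCR9 (AT3G52730) had log2 fold changes of -0.069 and -0.017 (adjusted p = 0.827 and 0.957).

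Complex IV, cytochrome c oxidase, was represented by both listed genes for COX5B, a zinc-binding subunit on the matrix side, and neither passed the test. AT3G15640 had signals of 265, 294 and 312 on the control arrays and 243, 290 and 250 on the ozone arrays, a log2 fold change of -0.16 (SE 0.15, adjusted p = 0.475). AT1G80230 had 106, 207 and 215 under scrubbed air and 101, 244 and 237 under ozone. Its replicate 1 arrays were about equal to each other and far below all 4 other arrays. Its log2 fold change of 0.10 had the widest interval of the 35 subunits, -0.83 to 1.03 (SE 0.40, adjusted p = 0.878).

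ATP synthase consists of a catalytic head and central stalk, F1, on a membrane part, Fo, that conducts protons. None of its 5 measured subunits passed the test, against 28.0% of all tested probe sets. All 5 log2 fold changes were negative, as were 61.5% of all tested probe sets, and ran from -0.33 to -0.035 with a median of -0.074. With median centring that median was 0.00045. In the central stalk the delta subunit AT5G47030 had signals of 1161, 924 and 974 on the control arrays and 1077, 772 and 866 on the ozone arrays, a log2 fold change of -0.18 (SE 0.18, adjusted p = 0.501). The epsilon subunit AT1G51650 had 744, 526 and 574 against 708, 516 and 567, a log2 fold change of -0.040 (SE 0.19, adjusted p = 0.901). For both, replicate 1 was the highest array of its group.

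Subunit g, a small protein of the membrane part, is encoded by 3 measured genes. AT2G19680 had signals of 144, 162 and 189 on the control arrays and 139, 122 and 131 on the ozone arrays, so that all ozone arrays were lower, with a log2 fold change of -0.33 (SE 0.16, adjusted p = 0.174). AT4G29480 had 577, 440 and 527 against 565, 440 and 461, a log2 fold change of -0.074 (adjusted p = 0.780). AT4G26210 had 151, 174 and 171 against 144, 176 and 166, a difference of -0.035 on the log2 scale (adjusted p = 0.891). The groups overlapped for the last 2 of these genes.

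Genes for the same subunit were set against each other in their ozone differences, in 9 pairs from 7 subunits with more than 1 measured gene. With 3 arrays a group the smallest exact two-sided permutation p is 0.1, so no pair could reach 0.05. The 95% intervals of the pairs come from a t distribution with the pooled spread of both groups. They do not come from the permutation, and they leave out the replicate number. The QCR7 pair differed by -1.48 on the log2 scale, AT4G32470 minus AT5G25450 (95% interval -2.58 to -0.38, exact permutation p = 0.1, adjusted p = 0.3 over the 9 pairs). The QCR6 pair differed by 0.59, AT1G15120 minus AT2G01090 (interval -0.063 to 1.24), and the NDUFA8 pair by 0.46, AT5G18800 minus AT3G06310 (interval -0.12 to 1.04), and both also stood at the smallest p of 0.1 (exact permutation). The cytochrome c1 pair differed by 0.22, AT3G27240 minus AT5G40810 (interval -0.032 to 0.46, exact permutation p = 0.2). The NDUFB3 genes differed by 0.052 (interval -0.27 to 0.37), the COX5B genes by -0.26 (interval -1.53 to 1.02) and the subunit g pairs by -0.29 to 0.25, with exact permutation p between 0.3 and 0.9. Probe sequences were not used here, so how far paralogs share probes was not tested. The plot of paralogous genes gives the signals of the 6 subunits with a single pair of measured genes.

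**Figure D3:**
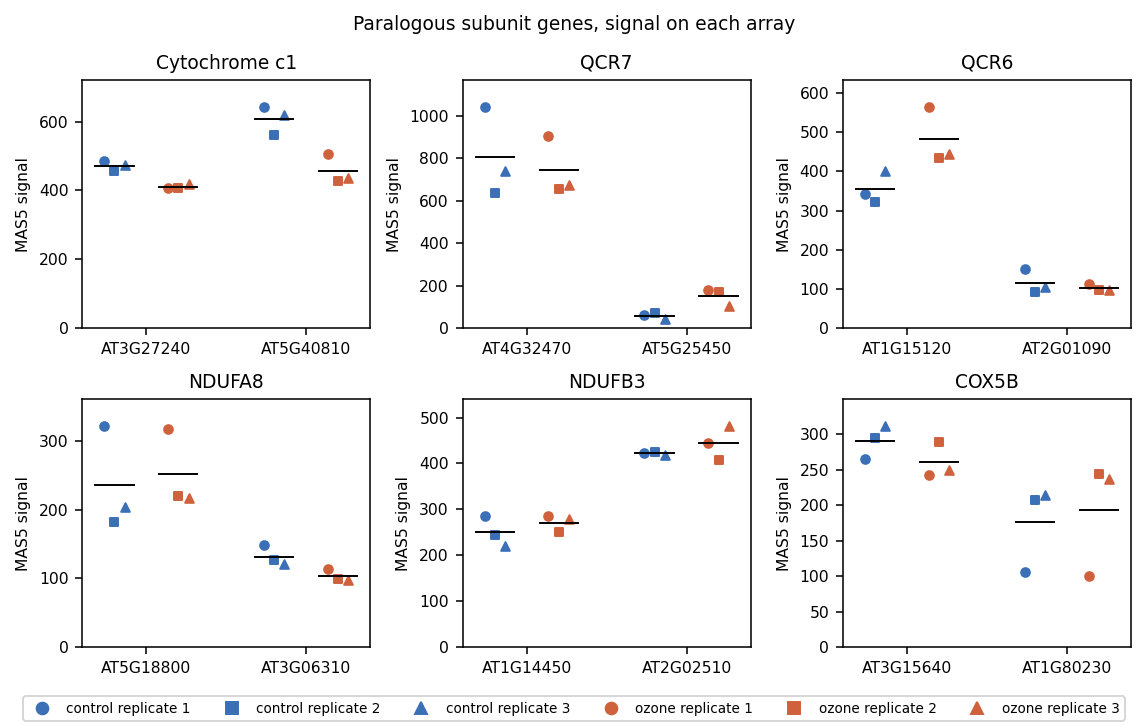
Linear MAS5 signal (y axis, from 0) of both genes for 6 subunits on each of the 6 arrays, with colours for control and ozone, marker shapes for the replicate number and a bar at the mean of each group. Within QCR7, AT5G25450 was higher on all ozone arrays and AT4G32470 overlapped; within QCR6 the same holds for AT1G15120 and AT2G01090. Levels of different probe sets cannot be compared, so only the groups of 1 gene are to be read against each other.

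For most of the 35 subunits the arrays numbered 1 differed from the others, averaged over both groups, by more than ozone differed from control. The contrast given here is that of number 1 alone, the number that stood apart in both groups of these same arrays. It was therefore not chosen independently of the values it describes. Replicate 1 was the highest array of both groups for 21 subunits, against 25.9% of all tested probe sets, and the lowest of both for 7, against 31.4%. In 25 of the 35 (71.4%) the difference of replicate 1 from replicates 2 and 3 was larger in size than the ozone difference, against 40.2% of all tested probe sets. The median size of the replicate difference was 0.29 on the log2 scale for the subunits and 0.29 for all tested probe sets, while the median size of the ozone difference was 0.12 and 0.40. The meaning of the replicate number is not given in the labels.

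By complex, replicate 1 was the highest array of both groups for 12 of 18 complex I subunits, 6 of 10 of complex III and 3 of 5 of ATP synthase. It was the lowest of both groups for NDUFS7, NDUFS5 and B14.7 of complex I, AT1G51980 of complex III, AT4G26210 of ATP synthase and both COX5B genes. The steepest replicate difference was that of the COX5B gene AT1G80230, -1.12 on the log2 scale, and the steepest in the other direction that of the NDUFA8 gene AT5G18800, 0.64. The median of the subunits over the control mean was 0.14, -0.085 and -0.010 on control replicates 1, 2 and 3 and 0.042, -0.13 and -0.17 on the ozone arrays, so ozone replicate 1 lay above control replicates 2 and 3.

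**Figure D4:**
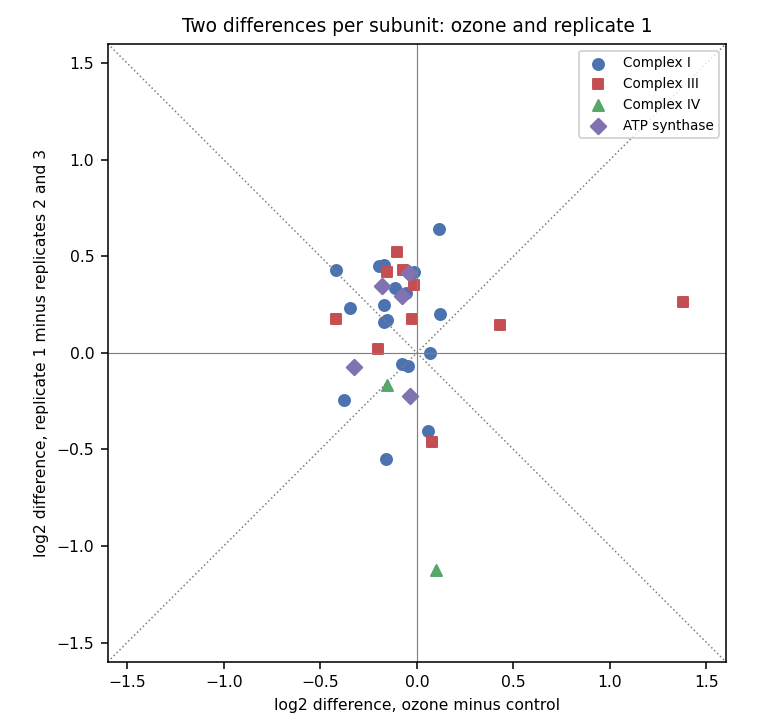
Ozone difference (x axis) and difference of replicate 1 from replicates 2 and 3, averaged over both groups (y axis), of each of the 35 subunits, both on the log2 scale, with colour and shape for the complex and dotted lines where both are equal in size. Most points lie within 0.5 of 0 on the x axis and spread along the y axis, with AT5G25450 at 1.38 on the x axis and AT1G80230 at -1.12 on the y axis.

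Other genes of mitochondrial respiration were taken from 8 lists with 83 loci, of which 22 probe sets were tested. Of these 5 rose and none fell (22.7%, against 28.0% of all tested probe sets), and with the block 10 rose and 2 fell, where 49.1% of all tested probe sets passed. Soluble cytochrome c, the carrier between complexes III and IV, has 2 genes. CYTC-2 (AT4G10040) had signals of 72.2, 70.0 and 68.5 on the control arrays and 220, 241 and 148 on the ozone arrays, a 2.83-fold rise (log2 fold change 1.50, SE 0.21, limma adjusted p = 0.00198), with every ozone array above every control array. CYTC-1 (AT1G22840) had 842, 580 and 888 against 1286, 1121 and 1040, groups that did not overlap either, with a log2 fold change of 0.60 (SE 0.20, adjusted p = 0.0613, or 0.00543 with the block). It also passed with quantile normalization (limma adjusted p = 0.0135), where 29.2% of all tested probe sets passed.

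The alternative NADH dehydrogenases let electrons enter the chain without complex I. NDB2 (AT4G05020), an external NADH dehydrogenase, rose 8.76-fold, from 69.4, 81.2 and 69.9 on the control arrays to 655, 747 and 542 on the ozone arrays (log2 fold change 3.13, SE 0.17, adjusted p = 4.25e-05). NDB1 (AT4G28220) and NDC1 (AT5G08740) of the same family had log2 fold changes of 0.039 and -0.010 (adjusted p = 0.909 and 0.988), and NDB3 and NDB4 were below the filter. The other 7 listed loci of alternative respiration were not measured on a probe set of their own, and no alternative oxidase gene is among the measured loci.

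Of the other subunits of succinate dehydrogenase, complex II, 3 were tested and none passed. The flavoprotein gene SDH1-1 had a log2 fold change of 0.21 and the iron-sulfur genes SDH2-1 and SDH2-2 had 0.17 and 0.20 (adjusted p = 0.453, 0.582 and 0.377). SDH1-2 and a second probe set of SDH2-1 were below the filter. The listed member of complex II, SDH5, had no named probe set.

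In the tricarboxylic acid cycle, which supplies NADH and succinate to the chain, 3 of 9 tested genes rose and none fell, a share near the 28.0% of all tested probe sets. Of 19 listed loci of the cycle 9 were tested, all of isocitrate dehydrogenase, the 2-oxoglutarate dehydrogenase complex or succinyl-CoA ligase. The median log2 fold change of the 9 was 0.61, against -0.15 over all tested probe sets, and 8 of 9 values were positive. AT4G26910, the dihydrolipoyl succinyltransferase of the 2-oxoglutarate dehydrogenase complex, rose from 257 ± 22.5 to 735 ± 103 (SD, n = 3 each; log2 fold change 1.51, SE 0.16, limma adjusted p = 0.00064). AT3G55410, the first enzyme of the same complex, rose from 303 ± 30.5 to 532 ± 115 (log2 fold change 0.79, adjusted p = 0.0169), although its adjusted p was 0.0593 without control replicate 3 and 0.0517 without ozone replicate 2. The catalytic isocitrate dehydrogenase gene IDH5 (AT5G03290) rose from 544 ± 71.1 to 949 ± 152 (log2 fold change 0.80, adjusted p = 0.0133), and its adjusted p was 0.0593 without control replicate 2 and 0.0604 without control replicate 3. In the other direction AT5G23250, an alpha subunit of succinyl-CoA ligase, had -0.35 as its log2 fold change (adjusted p = 0.162, or 0.0417 with the block). With the block 7 of the 9 rose and 1 fell, and 49.1% of all tested probe sets passed (19.1% higher, 30.0% lower).

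None of the 4 tested genes of pyruvate dehydrogenase, the complex that makes acetyl-CoA for the cycle, passed the test. AT3G13930 and AT1G54220, dihydrolipoyl acetyltransferases, had log2 fold changes of -0.35 and -0.34 (adjusted p = 0.149 and 0.168, or 0.0299 for AT3G13930 with the block), and the beta subunit AT5G50850 had -0.015 (adjusted p = 0.956). TOM7 (AT5G41685), a small subunit of the outer membrane import pore, was the 1 tested gene of 21 listed for protein import, with -0.058 as its log2 fold change (adjusted p = 0.783). The lists of uncoupling proteins with dicarboxylate carriers and of adenylate and phosphate carriers had no probe set of their own.

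**Figure D5:**
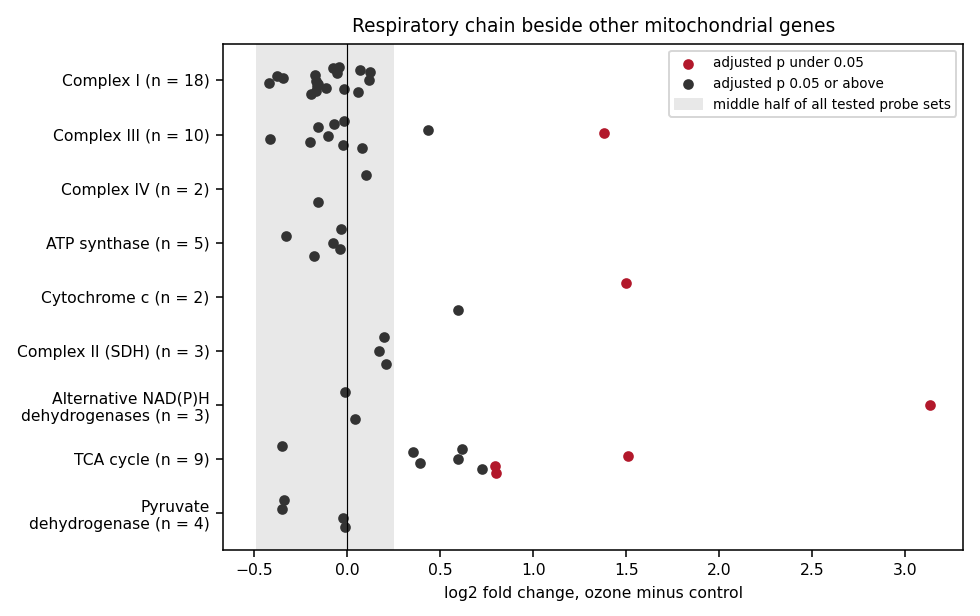
Log2 fold change, ozone minus control (x axis), of each tested gene in the respiratory complexes and in the other lists of mitochondrial genes except TOM7 (y axis, with the number of genes). Red points passed the threshold, and the grey band spans the lower to the upper quartile of all tested probe sets, from -0.49 to 0.25. All subunits of complexes I, III, IV and ATP synthase lie inside the band except the complex III genes AT1G15120 at 0.43 and AT5G25450 at 1.38. In the other lists the red points are NDB2 at 3.13, CYTC-2 at 1.50 and 3 genes of the tricarboxylic acid cycle. These are AT4G26910 at 1.51, IDH5 at 0.80 and AT3G55410 at 0.79.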

How the data were processed

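Ozone and control seedlings were compared on 6 arrays, 3 per group, with groups and replicate numbers taken from the sample titles. The deposited intensity of each probe set is a linear MAS5 signal, per the submitters' processing notes, which name no version. The number of arrays limits the precision.

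The 95 zeros took the smallest positive value of their array, values were taken to log2, and 64 control probe sets and probe sets below the 40th percentile of mean log2 signal were left out. The remaining 13648 were fitted with limma 3.58.1 in R 4.3.3 (lmFit, eBayes with a trend, two-sided), and p-values were adjusted by Benjamini-Hochberg over all of them. Every adjusted p in the text comes from this fit unless another is named. The code was tested on simulated data.

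Members and gene lists were chosen with earlier results of these data known. All measured members are named, as are all tested genes of alternative respiration, cytochrome c and succinate dehydrogenase. Each other list is represented by its 3 genes of smallest p and the gene of smallest p in the other direction. The platform table gives 13513 probe sets 1 gene and 503 several; loci come from it and the RefSeq gene table. Roles are background knowledge.

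Deviations from the group means were correlated across probe sets between arrays of the same replicate number. The r values were 0.747, 0.374 and 0.439, all above the bound of 0.1 set for reading the numbers as pairs. For numbers 2 and 3 this bound cannot decide the pairing, because deviations within a group cancel and number 1 stood apart in both groups. Between unlike numbers 2 and 3, r was of similar size (0.412 and 0.368). The values set apart number 1 only, and the pairing of 2 and 3 in the block rests on the sample titles. Every adjusted p with the block depends on that pairing. What a number stands for is not given. Values from a fit with this block stand beside results whose call or count they alter.

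Other settings tried were the block, robust eBayes, eBayes with no trend, no filter, a filter at the 60th percentile, an added signal of 16 or 64, median centring, quantile normalization and leaving out each array. Leaving out both arrays numbered 1 was chosen after seeing the data.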

Additional observations from a re-analysis of the deposited data

How the results depend on the processing

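The count of subunits that rose was 1 under every alternative, except 2 with the replicate block, where the count of complex III was also 2. The count that fell was 0 except for 1 with quantile normalization (1 of complex III), 3 with the replicate block (2 of complex I, 1 of complex III) and 2 without both arrays numbered 1 (1 of complex I, 1 of complex III). Over all tested probe sets the count that fell was 2039, 4097 with the replicate block and 991 to 1957 with 1 array left out; the count that rose was 1777, and 1205 to 1810 with 1 array left out. In the other mitochondrial lists 5 rose, 10 with the replicate block (2 fell), 8 without both arrays numbered 1 and 3 to 7 with 1 array left out, the 3 without control replicate 3. With quantile normalization and with median centring 6 rose in these lists. The block changed no call beyond those given or counted in the text. Of the 35 subunits 17 changed sign when 1 array was left out, all with a main log2 fold change of at most 0.17 in size, and none did with quantile normalization.

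With median centring the log2 fold change turned positive for AT5G67590 (0.059), AT2G33220 (0.017), AT2G31490 (0.029), AT3G02090 (0.052), AT3G10860 (0.0056), AT3G52730 (0.058), AT1G51650 (0.035), AT4G29480 (0.00045), AT4G26210 (0.040), NDC1 (0.065), AT5G50850 (0.060), AT3G52200 (0.052) and TOM7 (0.017). With quantile normalization it did for NDC1 (0.0056) and AT5G50850 (0.017), and without both arrays numbered 1 for AT5G50850 (0.022) and AT3G52200 (0.078). With 1 array left out the sign changed, over the ranges given, for AT5G11770 (-0.10 to 0.17), AT5G67590 (-0.15 to 0.13), AT3G62790 (-0.36 to 0.026), AT5G18800 (-0.064 to 0.36), AT3G03100 (-0.28 to 0.0044), AT2G33220 (-0.18 to 0.061), AT2G31490 (-0.14 to 0.064), AT1G51980 (-0.056 to 0.25), AT3G02090 (-0.072 to 0.045), AT4G32470 (-0.26 to 0.099), AT2G01090 (-0.30 to 0.048), AT3G10860 (-0.18 to 0.11), AT3G52730 (-0.13 to 0.10), AT1G80230 (-0.23 to 0.52), AT1G51650 (-0.17 to 0.11), AT4G29480 (-0.18 to 0.012) and AT4G26210 (-0.10 to 0.048). It also changed for NDB1 (-0.11 to 0.19), NDC1 (-0.43 to 0.30), AT5G50850 (-0.080 to 0.087) and AT3G52200 (-0.22 to 0.28). The cause was not tested.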

Other observations

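A few core subunits of the chain are encoded in the mitochondrial genome, and those genes were looked up after the data had been seen. The annotation names 17 probe sets for 10 such genes, and 14 of the 17 were below the filter on dim probe sets. None of the 3 tested ones passed (limma adjusted p). The oxidase subunit cox1 had a signal of 65.5 ± 9.42 on the control arrays and 52.1 ± 2.91 on the ozone arrays (SD, n = 3 each), with -0.32 as its log2 fold change (limma adjusted p = 0.231). The complex I subunit nad1, on 1 of its 7 probe sets, had 35.0 ± 2.44 and 39.2 ± 4.22, a log2 fold change of 0.16 (limma adjusted p = 0.556). The complex I subunit nad4 had signals of 167, 65.8 and 71.4 on the control arrays and 95.4, 84.2 and 52.7 on the ozone arrays, overlapping groups with a log2 fold change of -0.30 (limma adjusted p = 0.603).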
